A study of Mus musculus with 5 samples.

Results

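ATP-dependent chromatin remodellers are described here in livers of male mice about 10 months old. Genes were taken by symbol: those of the SWI/SNF, ISWI, CHD, NuRD and INO80 groups and a few further SNF2 ATPases, each read from its probe set of highest average signal on the 5 arrays. The symbols gave 49 genes of 19938 measured. Of the 51 genes the symbols were meant to cover, Mbd5 and Ino80e had no probe set of their own and were not analysed here. Each of 5 Affymetrix arrays held RNA of 1 sample, and the deposited values are log2 expression values for which the submitters name RMA.

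The 3 tumour samples were liver tumours of mice with the genotype Hdac3FL/-AlbCre+, in which a floxed and a null allele of the histone deacetylase gene Hdac3 are paired. The 2 control samples were normal livers of Hdac3FL/+AlbCre+ mice, which carry a wild-type allele in place of the null one. Cre is driven by the albumin promoter in all 5 animals, so recombination is directed to hepatocytes, and control hepatocytes also lose their floxed allele. Every null sample was tumour and every control was normal tissue, so genotype and tumour state cannot be told apart. The labels call the arrays biological replicates.

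Remodellers are large complexes built around an ATPase of the SNF2 family that slides, evicts or exchanges nucleosomes. SWI/SNF complexes open chromatin at promoters and enhancers and carry either Smarca2 (BRM) or Smarca4 (BRG1) as their motor, with interchangeable accessory subunits from paralogous genes. ISWI motors space nucleosomes. Chd proteins have chromodomains, and Chd3 or Chd4 drives NuRD, which joins remodelling to histone deacetylation by Hdac1 and Hdac2. INO80 and its relatives exchange histone variants and use the Ruvbl1 and Ruvbl2 helicases. In hepatocytes SWI/SNF and NuRD are known as cofactors of gene regulation in differentiation and regeneration.

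Hdac3 itself was measured at 6.78, 6.57 and 6.65 in tumours 1, 2 and 3, against 8.21 and 8.37 in the controls. All tumours lay below both controls, by 1.62 log2 units on average (95% confidence interval of the change −1.95 to −1.30; limma adjusted p = 0.00298). The call was lost without control 1 (adjusted p = 0.0505) or control 2 (0.0663). Without limma's moderation of the variances the call was lost as well (adjusted p = 0.0704). Where the probes lie relative to the deleted part was not analysed here.

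Of the remodeller genes, 47 of 49 did not pass the test, which with so few arrays does not show that they were unchanged. A pair of SWI/SNF genes fell, the ATPase gene Smarca2 to 0.416 times and the accessory subunit gene Smarcd2 to 0.586 times the control level, and 0 rose. With limma's test and Benjamini-Hochberg adjustment over all genes at 0.05, called genes were thus 2 of 49 (4.08%), where 10.6% of all genes were called (5.6% higher and 4.96% lower). At an unadjusted p under 0.05 there were 7 remodeller genes higher and 6 lower, 26.5% of them, against 25.2% of all genes (12.9% higher and 12.3% lower). Changes of at least 2-fold were seen in 2 of the 49, Smarca2 and Hells, or 4.08%, against 9.49% of all genes. The median change was 0.07 log2 units, beside −0.02 for all genes, with 32 genes above and 17 below their control mean. Of all 19938 genes, 9385 lay above and 10553 below theirs. With arrays shifted to a common median, the remodeller median was −0.03.

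**Figure D1:**
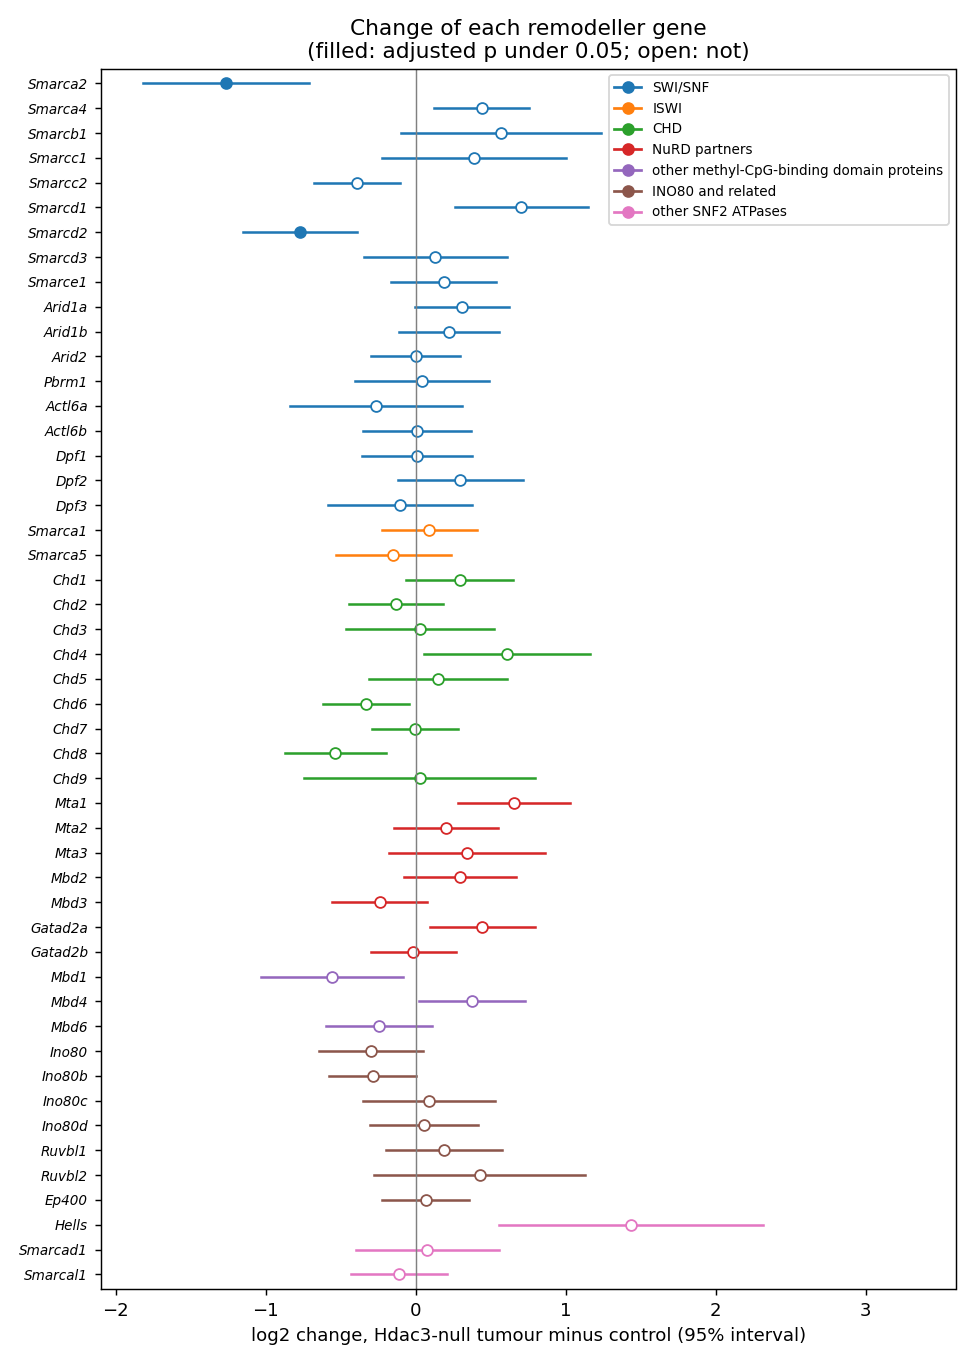
Log2 change (tumour minus control, horizontal axis) of each of the 49 remodeller genes with its 95% confidence interval from limma, coloured by role. Filled points passed an adjusted p of 0.05: Smarca2 at −1.27 and Smarcd2 at −0.77; open points did not.

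**Figure D2:**
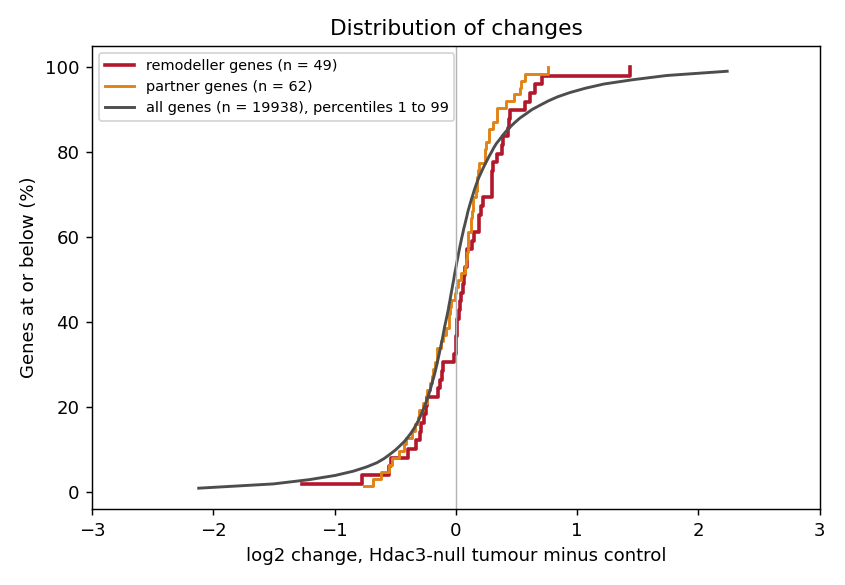
Cumulative share of genes (vertical axis, %) by log2 change (tumour minus control, horizontal axis) for the 49 remodeller genes, the 62 partner genes and all 19938 genes, the last drawn between percentiles 1 and 99. The remodeller curve spans −1.27 to 1.43, with medians of 0.07 for the remodeller genes, 0.03 for the partner genes and −0.02 for all genes.

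The promoters of the called genes and of their oppositely placed paralogs are shown because these 4 genes made the largest shifts within pairs of paralogs, described below. Each line holds the 250 bases before the RefSeq start (build GRCm38.p6), 5′ to 3′ on the gene's strand, and capitals mark the GC box GGGCGG or its reverse complement CCGCCC. The windows are chr19:26604910-26605159 on the plus strand for Smarca2, chr9:21615919-21616168 on the plus strand for Smarca4, chr11:106267633-106267882 on the minus strand for Smarcd2 and chr15:99702037-99702286 on the plus strand for Smarcd1.
Smarca2: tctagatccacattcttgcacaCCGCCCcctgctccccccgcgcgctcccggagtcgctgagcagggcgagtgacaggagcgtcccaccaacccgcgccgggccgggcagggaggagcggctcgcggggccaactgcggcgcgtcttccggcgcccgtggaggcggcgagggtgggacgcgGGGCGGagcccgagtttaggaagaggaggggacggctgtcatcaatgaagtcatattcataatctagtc
Smarca4: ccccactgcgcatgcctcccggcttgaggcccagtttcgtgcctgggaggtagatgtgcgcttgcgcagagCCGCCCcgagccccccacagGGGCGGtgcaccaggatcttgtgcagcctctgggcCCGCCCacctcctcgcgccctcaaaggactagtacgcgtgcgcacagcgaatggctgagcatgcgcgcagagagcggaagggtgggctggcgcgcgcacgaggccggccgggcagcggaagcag
Smarcd2: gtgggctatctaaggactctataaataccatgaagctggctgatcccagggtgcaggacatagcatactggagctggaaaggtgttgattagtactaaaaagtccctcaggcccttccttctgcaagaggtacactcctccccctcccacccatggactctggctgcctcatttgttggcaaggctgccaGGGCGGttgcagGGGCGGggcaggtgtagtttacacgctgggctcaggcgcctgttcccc
Smarcd1: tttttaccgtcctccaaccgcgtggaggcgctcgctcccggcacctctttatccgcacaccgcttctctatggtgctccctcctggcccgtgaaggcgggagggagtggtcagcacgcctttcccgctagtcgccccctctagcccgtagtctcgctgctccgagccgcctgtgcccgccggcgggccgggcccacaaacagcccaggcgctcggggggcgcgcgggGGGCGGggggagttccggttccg

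GC boxes were matched 2 times in the Smarca2 window, 3 times in Smarca4, 2 times in Smarcd2 and 1 time in Smarcd1. The CCAAT box (CCAAT), the E box (CACGTG) and the nuclear receptor element AGGTCA, searched on both strands, had 0 matches in all 4 windows. CpG dinucleotides numbered 28 in Smarca2, 25 in Smarca4, 29 in Smarcd1 and 4 in Smarcd2, the fewest of these windows. Promoters in the table were found for 38 of the 49 genes, 46 windows in all. Among these, 82.6% held a GC box, 39.1% a CCAAT box, 2.17% the E box and 4.35% AGGTCA. Over all 32851 windows of the table, noncoding genes included, the shares were 32.7%, 33.8%, 6.02% and 14%, in the same order. The median CpG count was 20.5 in the remodeller windows and 6 over all windows. These matches describe sequence and say nothing of binding.

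Smarca2 encodes BRM, one of the alternative SWI/SNF motors. It was at 8.72, 8.18 and 8.02 in tumours 1, 2 and 3, against 9.51 and 9.63 in the controls. The groups did not overlap, and tumour 1 lay nearest to the controls. The change was −1.27 (SE 0.23, 95% interval −1.82 to −0.71; adjusted p = 0.0238). The call was lost without tumour 2 (adjusted p = 0.0703), control 1 (0.172) or control 2 (0.207).

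Smarca4 encodes BRG1, the other motor. Its values were 8.73, 8.75 and 8.95 in the tumours and 8.38 and 8.37 in the controls, so that all tumours lay above both controls. The change of 0.44 (interval 0.12 to 0.76) did not pass the test (adjusted p = 0.0919).

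Smarcd2 and Smarcd1 encode alternative BAF60 subunits, which link SWI/SNF to transcription factors. Smarcd2 was at 8.17, 7.96 and 8.34 in the tumours, against 8.86 and 8.999 in the controls. The groups did not overlap, and it fell by 0.77 log2 units (SE 0.15; adjusted p = 0.0326). The call was lost without tumour 1 (adjusted p = 0.0627), tumour 2 (0.0741), control 1 (0.184) or control 2 (0.248). Smarcd1 was at 7.02, 7.15 and 6.64 in the tumours, against 6.22 and 6.24 in the controls, above both controls in each tumour. Its change of 0.71 (interval 0.26 to 1.15) had an adjusted p of 0.0633, and it passed with array weights (0.0139), without tumour 3 (0.0119) and with the replicate number as a block (0.0245), a fit that also takes its estimate without tumour 3, which has no control of its number. Smarcd1 did not pass with quantile normalisation repeated (0.132) or with arrays shifted to a common median (0.112). Nor did it pass without moderation (0.226), without tumour 1 (0.122), without tumour 2 (0.138) or without either control. The change was 0.70 without control 1 and 0.71 without control 2. Smarcd3, the third BAF60 gene, had a change of 0.13 with overlapping groups.

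The BAF155 and BAF170 scaffold genes also had changes of opposite sign, but neither passed the test. Smarcc2 (BAF170) was at 8.99, 8.91 and 8.88 in the tumours and 9.30 and 9.34 in the controls, a change of −0.39 (adjusted p = 0.0946). Smarcc1 (BAF155) was at 7.84, 8.17 and 8.65 in the tumours and 7.93 and 7.73 in the controls, a change of 0.39 with overlapping groups (adjusted p = 0.414).

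**Figure D3:**
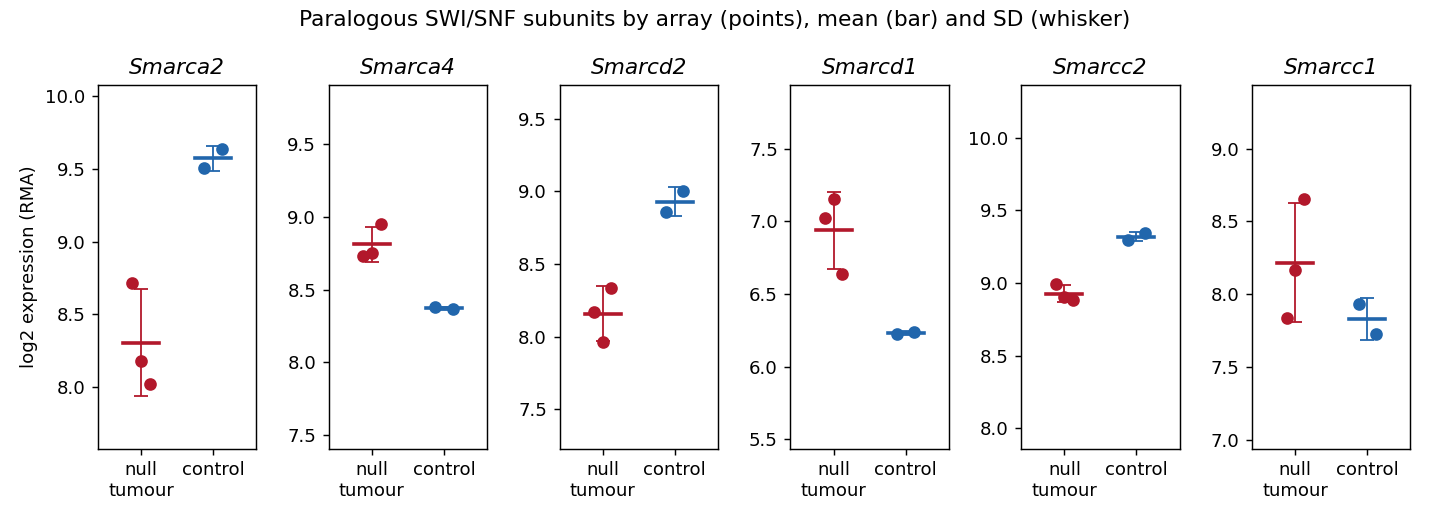
Log2 expression of 6 SWI/SNF genes in each array (points), with the group mean (bar) and SD (whisker), 3 tumours left of 2 controls; every panel spans the same log2 range. Smarca2, Smarcd2 and Smarcc2 lie lower in all tumours, Smarca4 and Smarcd1 lie higher in all tumours, and Smarcc1 overlaps.

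The balance within paralog pairs was compared over 16 pairs, as the log2 difference between their probe sets in each array. The absolute size of such a difference depends on the probes, so only its shift between groups is read. Smarca2 minus Smarca4 was −0.02, −0.57 and −0.93 in the tumours, against 1.13 and 1.27 in the controls. That is a mean of −0.51 ± 0.46 in tumours and 1.20 ± 0.10 in controls (SD, n = 3 and 2), a shift of −1.71. Smarcd1 minus Smarcd2 was −1.15, −0.81 and −1.70 in the tumours, against −2.64 and −2.76 in the controls, a shift of 1.48. Smarcc1 minus Smarcc2 was −1.15, −0.74 and −0.23 in the tumours and −1.36 and −1.62 in the controls, a shift of 0.78. In each of these 3 pairs the groups did not overlap, which held for 11 of the 16 pairs in all. Of all single genes 44.2% showed no overlap, and the share over pairs of other genes was not computed. Smarcd1 and Mta2 recur among the pairs. The 11 include Smarca1 minus Smarca5, although Smarca1 was below the lower quartile of the arrays in both groups.

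The exact permutation test over the arrays (two-sided) cannot go below p = 0.1 here. It gave 0.1 for Smarca2 and Smarca4 and for Smarcd1 and Smarcd2, and 0.2 for Smarcc1 and Smarcc2, which are 0.2, 0.2 and 0.291 after adjustment over the pairs. No pair therefore passed. Next in size were Chd3 minus Chd4 at −0.58, Smarcd1 minus Smarcd3 at 0.58, and Mbd2 minus Mbd3 and Chd7 minus Chd8, each at 0.53. In each of these pairs the groups did not overlap (exact p = 0.1). Arid1a minus Arid1b shifted by 0.09, and Actl6a minus Actl6b by −0.27, with overlapping groups (exact p = 0.5 each).

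Apart from Smarca2 and Smarcd2, no SWI/SNF gene passed the test. Among all 18 SWI/SNF genes 2 fell (11.1%, where 10.6% of all genes were called), 0 rose and 16 did not pass. At an unadjusted p under 0.05 there were 2 higher and 3 lower (27.8%, against 25.2% of all genes). All tumours lay above both controls in 7 genes and below both in 3 (21.1% and 23.1% of all genes did so). Smarcb1, the core subunit known as SNF5 and as a tumour suppressor, was at 7.84, 8.01 and 8.72 in the tumours, against 7.62 and 7.62 in the controls. It lay above the controls in all tumours, tumour 3 standing far above the others, and its change of 0.57 had a wide interval (−0.09 to 1.24; adjusted p = 0.266).

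The ARID subunits help to define the BAF and PBAF forms of the complex. Arid1a, often mutated in human liver cancer, was at 8.59, 8.71 and 8.77 in the tumours and 8.45 and 8.31 in the controls (change 0.31, adjusted p = 0.207). Arid1b changed by 0.22, and Arid2 and Pbrm1, the PBAF genes, by 0.00 and 0.04. The remaining genes, Smarce1, Actl6a, Actl6b, Dpf1, Dpf2 and Dpf3, ranged from −0.26 to 0.30 in change. The 3 probe sets of Smarce1 gave changes between 0.18 and 0.32, and the 3 of Pbrm1 between −0.14 and 0.07. Actl6b, Dpf1 and Dpf3, whose products belong to the neuronal form of the complex, had changes of 0.01, 0.01 and −0.11.

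Neither ISWI motor gene passed. Smarca5 (SNF2H), the motor of most ISWI complexes, was at 7.48, 7.84 and 7.84 in the tumours and 7.89 and 7.84 in the controls, a change of −0.15 (interval −0.53 to 0.24; adjusted p = 0.638). Tumour 1 was the lowest, while the other two lay just under control 2. Smarca1 (SNF2L) was at 2.91, 3.001 and 3.09 in the tumours and 2.83 and 2.98 in the controls. Both groups were under the lower quartile of their arrays (4.63 and 4.62), so Smarca1 was not shown to be above background.

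None of the 9 Chd genes passed limma's test. At an unadjusted p under 0.05 there were 3 (33.3%, against 25.2% of all genes), 1 higher and 2 lower. Chd4, the NuRD motor, was at 9.35, 9.96 and 10.03 in the tumours, against 9.17 and 9.17 in the controls. All tumours lay above the controls, with tumour 1 close to them. The change was 0.61 (interval 0.05 to 1.16; adjusted p = 0.164), and it passed only without tumour 1 (0.0258). Chd3, the alternative motor, was at 8.24, 8.79 and 8.31 in the tumours and 8.51 and 8.32 in the controls, with overlap and a change of 0.03. Chd5, the NuRD motor best known from neurons, was at 5.52, 5.69 and 5.51 in the tumours, within the controls' 5.69 and 5.16 (change 0.15).

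Chd8, which is known to restrain beta-catenin and p53, was the Chd gene nearest to a call. It was at 7.19, 7.01 and 7.19 in the tumours, against 7.55 and 7.78 in the controls. No tumour reached a control, and the change was −0.53 (interval −0.87 to −0.20; adjusted p = 0.0642). It passed with quantile normalisation repeated (0.0492), with arrays shifted to a common median (0.0403) and with array weights (0.0326). Chd8 did not pass with a variance trend (0.0868), the replicate block (0.104) or without moderation (0.169). Nor did it pass without tumour 1 (0.0973), tumour 2 (0.152), tumour 3 (0.0636) or either control. The change was −0.65 without control 1 and −0.42 without control 2.

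Chd6 was at 6.35, 6.30 and 6.26 in the tumours, against 6.60 and 6.67 in the controls, below both controls in each tumour. Its change was −0.33 (adjusted p = 0.142), and its other probe set stood at −0.09. Chd7, mutated in CHARGE syndrome, was at 8.77, 8.71 and 8.81 in the tumours and 8.73 and 8.80 in the controls, a change of 0.00 (interval −0.29 to 0.29). It is covered by 30 probe sets, of which 20 lay below and 10 above the control mean, with changes from −0.44 to 0.20 and a median of −0.06. Chd9, described as a cofactor of PPARα, was at 8.10, 8.60 and 7.55 in the tumours and 7.88 and 8.23 in the controls. It had the widest tumour range of the Chd genes (1.05 log2 units), with tumours on both sides of the controls.

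Chd1, which binds methylated histone H3 at active genes, was at 8.52, 8.57 and 8.84 in the tumours and 8.36 and 8.33 in the controls, above both in each tumour (change 0.29, adjusted p = 0.283). Chd2, its closest relative, was at 7.74, 7.84 and 7.68 in the tumours and 7.96 and 7.80 in the controls, with overlap (change −0.13).

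Of the 7 NuRD partner genes, 5 lay above their control mean (9385 of all 19938 genes did so), with a median change of 0.29. By limma's test 0 passed. At an unadjusted p under 0.05 there were 2 higher and 0 lower (28.6%, against 25.2% of all genes). Mta1, the NuRD subunit best known for its link to metastasis, missed the threshold narrowly. It was at 8.87, 8.96 and 9.25 in the tumours, against 8.35 and 8.40 in the controls, a gap with no overlap. The change was 0.66 (SE 0.15, interval 0.28 to 1.03; adjusted p = 0.0501). It passed with quantile normalisation repeated (0.0447), without the dimmest genes (0.0447), with the mean of all probe sets (0.0495), with array weights (0.0221) and without tumour 3 (0.0439). Leaving out the dimmest genes and averaging probe sets left its change at 0.66. Mta1 did not pass with arrays shifted to a common median (0.0631), a variance trend (0.0606) or the replicate block (0.0754). Nor did it pass without moderation (0.182), without tumour 1 (0.0546), without tumour 2 (0.102) or without either control. The change was 0.63 without control 1 and 0.68 without control 2.

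Gatad2a, which bridges the deacetylase and remodelling modules of NuRD, was at 8.53, 8.67 and 8.82 in the tumours, against 8.14 and 8.31 in the controls (change 0.44, adjusted p = 0.117). All tumours lay above both controls. Its paralog Gatad2b changed by −0.02. Mta2 and Mta3 changed by 0.20 and 0.34 with overlapping groups. Mbd2, which brings NuRD to methylated DNA, lay above both controls in all tumours (change 0.29), and Mbd3, which takes its place in another form of NuRD, lay below both in all tumours (change −0.24); adjusted p was 0.307 and 0.324. The symbols also took in methyl-CpG-binding domain proteins that are not remodellers. Of these Mbd1 changed by −0.56, Mbd4 (a DNA glycosylase) by 0.38 and Mbd6 by −0.24, and 0 of 3 passed limma's test. At an unadjusted p under 0.05 there were 1 higher and 1 lower (66.7% of only 3 genes, against 25.2% of all genes).

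Of INO80 and related genes none passed the test. The motor gene Ino80 was at 7.30, 7.42 and 7.12 in the tumours, against 7.65 and 7.52 in the controls, below both controls in each tumour. Its change was −0.30 (interval −0.65 to 0.05; adjusted p = 0.266). The subunit gene Ino80b changed by −0.29, Ino80c by 0.09 and Ino80d by 0.06.

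Ep400, the motor of the TIP60 complex, was at 7.77, 7.68 and 7.70 in the tumours and 7.60 and 7.70 in the controls (change 0.07, interval −0.22 to 0.36). Ruvbl1 was at 8.09, 8.26 and 8.49 in the tumours and 8.02 and 8.16 in the controls (change 0.19, adjusted p = 0.544). Ruvbl2 was at 7.44, 7.55 and 8.36 in the tumours, against 7.34 and 7.38 in the controls, and tumour 3 alone stood far apart (change 0.43, adjusted p = 0.436). Of the 7 genes 0 passed limma's test, also at an unadjusted p under 0.05, which 25.2% of all genes had.

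Hells (LSH), an SNF2 ATPase needed for DNA methylation in dividing and stem cells, had the largest upward difference of the 49 genes. It was at 5.21, 5.35 and 6.39 in the tumours, against 4.27 and 4.16 in the controls. Every tumour lay above both controls, tumour 3 by far the most. The change was 1.43 (SE 0.36, interval 0.55 to 2.31), which did not pass (adjusted p = 0.0599), and the control mean of 4.22 lay below the controls' lower quartile (4.62), so its size is uncertain. Hells passed with array weights (0.0187), without tumour 1 (0.0495) and without tumour 3 (0.00652). It also passed with the replicate number as a block (0.0159), where tumour 3 again adds nothing to the estimate. Hells did not pass with quantile normalisation repeated (0.0535), arrays shifted to a common median (0.0597) or a variance trend (0.0619). Nor did it pass without moderation (0.268), without tumour 2 (0.0953) or without either control. The Hells change was 1.49 without control 1 and 1.38 without control 2. Proliferation genes stood beside it: 7 of 9 rose, Mcm6 by 2.60 and Mki67 by 2.30, and the mean of the list was 6.98, 7.61 and 8.02 in tumours 1, 2 and 3, against 5.83 and 5.53 in the controls. Their part in the Hells difference was not tested.

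**Figure D4:**
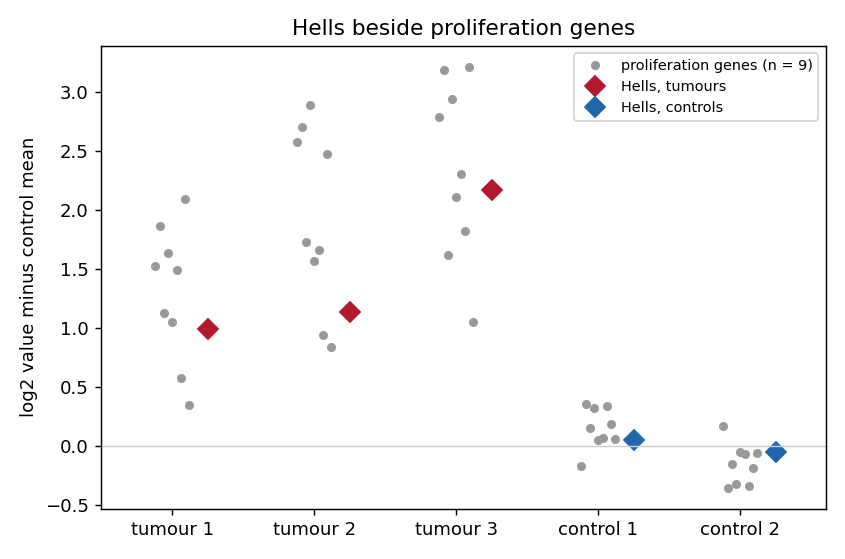
Log2 value minus the control mean (vertical axis) in each array for Hells (diamonds) and the 9 measured proliferation genes (grey points), tumours left of controls. Tumour 3 has the highest Hells value and the highest value of 8 of the 9 proliferation genes.

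The other SNF2 ATPases did not pass. Smarcad1, which acts at replicated chromatin, was at 7.30, 7.70 and 7.86 in the tumours and 7.47 and 7.62 in the controls (change 0.08, adjusted p = 0.864). Smarcal1, which remodels stalled replication forks, was at 7.05, 6.84 and 6.82 in the tumours and 7.03 and 6.99 in the controls (change −0.11, adjusted p = 0.682). In both genes the groups overlapped.

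Among the 20 ATPase and helicase genes, 1 fell, 0 rose and 19 did not pass limma's test. In the 29 other genes 1 fell and 0 rose. These were 5% and 3.45% called, against 10.6% of all genes. At an unadjusted p under 0.05 there were 3 higher and 3 lower ATPase and helicase genes (30%), and 4 and 3 of the others (24.1%), against 25.2% of all genes. Over all 49, the tumour values lay above both controls in 15 genes and below both in 10, together 51% of them, where 44.2% of all genes showed no overlap (21.1% higher and 23.1% lower).

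Each tumour was also set against the control mean. The median difference from the control mean over the 49 genes was 0.03, 0.09 and 0.09 in tumours 1, 2 and 3. Tumour 3 was the highest of the tumours in 28 of 49 genes (57.1%), against 46.6% of all genes. The median range among the tumours was 0.30 log2 units, beside 0.33 for all genes. The widest ranges were those of Hells (1.18), Chd9 (1.05), Ruvbl2 (0.92), Smarcb1 (0.88) and Smarcc1 (0.82), and tumour 3 was the highest in these except for Chd9, where it was the lowest. The narrowest was that of Arid2 (0.04).

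**Figure D5:**
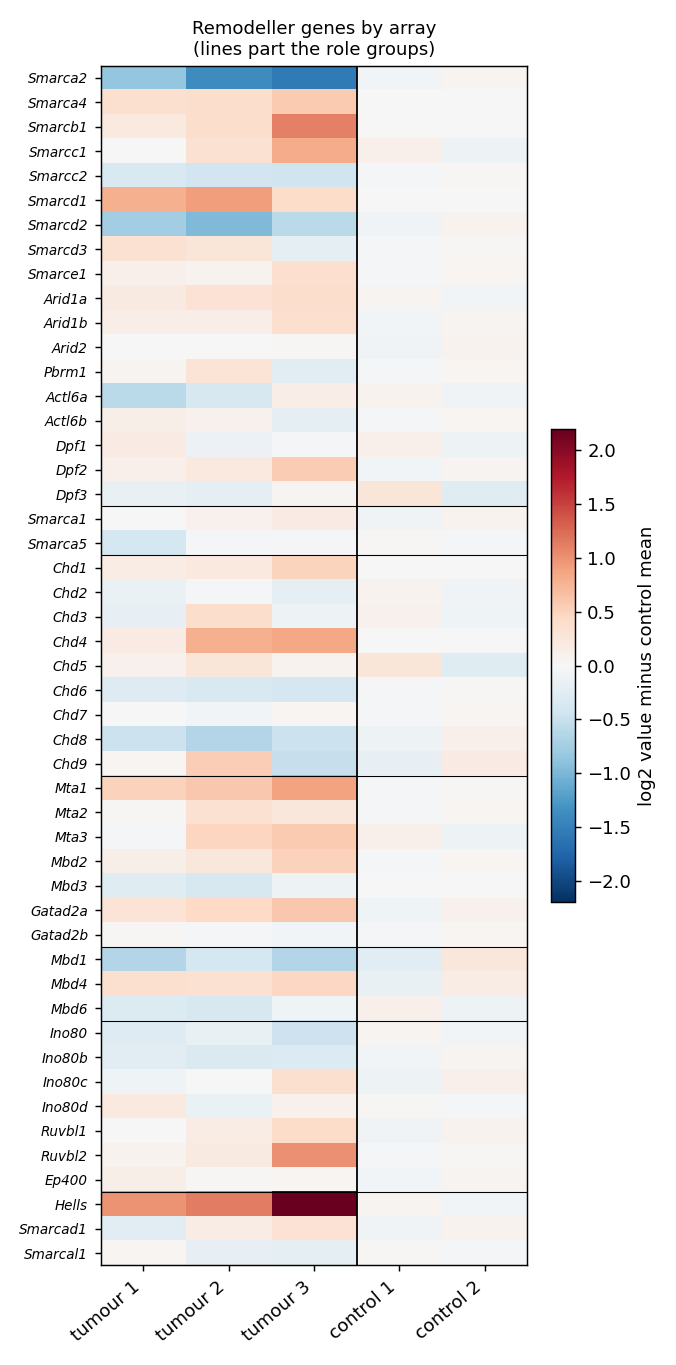
Log2 value minus the control mean (colour, red above and blue below) of the 49 remodeller genes (rows, in role groups parted by lines) in the 3 tumours and 2 controls (columns). Smarca2 and Smarcd2 are blue and Hells and Smarcd1 red in all 3 tumours; Smarcb1 and Ruvbl2 are darkest in tumour 3.

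Further genes outside the symbols used are called partner genes here. They are partners in the same complexes and 12 genes listed apart from these complexes with other SNF2 ATPases. Of the 62 partner genes, 4 fell (1 of them, Shprh, from the 12) and 0 rose by limma's test. That is a share of 6.45% against 10.6% of all genes. At an unadjusted p under 0.05 there were 5 higher and 8 lower (21%, against 25.2% of all genes). Their median change was 0.03. Rbbp4, the histone chaperone shared by NuRD and an ISWI complex, was at 9.24, 9.21 and 9.55 in the tumours, against 9.99 and 10.05 in the controls (change −0.69, adjusted p = 0.0419). Its paralog Rbbp7 was at 9.31, 9.69 and 10.16 in the tumours and 9.23 and 9.15 in the controls (change 0.53, adjusted p = 0.265).

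Cecr2, the bromodomain partner of an ISWI motor, was at 5.26, 5.25 and 5.39 in the tumours, against 5.85 and 6.27 in the controls (change −0.76, adjusted p = 0.04). Actr6, an actin-related subunit of the SRCAP complex, was at 6.07, 5.79 and 6.09 in the tumours, against 6.62 and 6.58 in the controls (change −0.62, adjusted p = 0.049). Shprh, an SNF2 ATPase and ubiquitin ligase of damage tolerance, was at 7.15, 7.19 and 7.05 in the tumours, against 7.64 and 7.68 in the controls (change −0.53, adjusted p = 0.0457). In all 4 the groups did not overlap. Without limma's moderation all 4 calls were lost (adjusted p between 0.0938 and 0.178). Each of these calls was lost without either control (adjusted p between 0.107 and 0.275) and without tumour 1 or tumour 2 (between 0.0715 and 0.106), and Shprh also without tumour 3 (0.0576).

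Hdac1 and Hdac2, the deacetylases of NuRD, changed by 0.17 and 0.18 (adjusted p = 0.669 and 0.636). Of the 12 SWI/SNF partners and of the 5 NuRD partners 0 passed limma's test. At an unadjusted p under 0.05 there was 1 lower among the SWI/SNF partners (8.33%, against 25.2% of all genes). Among the NuRD partners there were 0 in either direction. Among the 11 ISWI partners, with Rbbp4 listed here, 2 fell (18.2%, against 10.6% of all genes) and 0 rose. At an unadjusted p under 0.05 the ISWI partners had 3 higher and 2 lower (45.5%). Among the 22 partners in INO80, SRCAP and TIP60 complexes 1 fell (4.55%) and 0 rose. Of these partners 15 lay below their control mean, where 10553 of all 19938 genes did so. Atrx, the remodeller that deposits histone H3.3 with Daxx, changed by −0.16 (adjusted p = 0.488).

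The arrays hold RNA of whole tissue, in which fewer cells of a type and less RNA per cell cannot be told apart. Hepatocyte markers were present in all arrays, with a mean over 8 genes of 10.96 to 12.15 in tumours, against 12.59 to 12.61 in controls (2 fell, 0 rose). Without Cyp2e1, which was at 11.49, 8.87 and 4.10 in the tumours and 13.06 and 12.98 in the controls, the mean was 11.94 to 12.25 in tumours and 12.53 to 12.56 in controls. The mean of 10 macrophage markers was 7.85 to 8.75 in tumours, against 6.28 to 6.64 in controls (6 rose). Of these markers Clec4f was at 9.28, 6.37 and 5.03 in the tumours and 7.51 and 7.87 in the controls, and Cd5l and Marco also overlapped between the groups. The mean was 5.46 to 7.30 in tumours and 4.91 to 4.93 in controls for 4 T and NK cell genes, highest in tumour 3, and 6.64 to 9.09 in tumours and 8.18 to 8.36 in controls for 5 endothelial genes, lowest in tumour 3. For 4 cholangiocyte genes it was 5.59 to 5.97 in tumours and 5.10 to 5.16 in controls, and for 6 stellate cell and fibroblast genes 6.87 to 8.67 in tumours and 7.19 to 7.23 in controls (1 rose). For 4 B and plasma cell genes it was 4.21 to 4.66 in tumours and 4.05 to 4.78 in controls, with 3 of them below the lower quartile in at least 1 group, as Cd3g and Epcam of the T cell and cholangiocyte lists were in controls. Within 2 of these lists the genes moved in opposite ways. Of the 5 endothelial genes 2 lay above and 3 below their control mean. Pecam1 was above both controls in all tumours, while Clec4g was at 4.67 in tumour 3, against 9.13 and 9.53 in the controls. Of the 6 stellate cell and fibroblast genes 4 lay above and 2 below. The part of these markers in the differences of the remodeller genes was not tested.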

How the data were processed

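Log2 values per probe set were deposited for each array. Per the submitters' processing notes GCOS and RMA were used, without versions. RMA corrects background, normalises by quantiles and compresses low differences. The build behind the probe sets was not given in the sources used here. Probe sets were named from the platform's gene table: of 28853, 21789 had 1 symbol, 1621 several and 5443 none, and only the first kind was used. Among the rest, 16 with several symbols name a remodeller gene. Entrez identifiers of 21698 were found in the RefSeq table of GRCm38.p6, and 0 symbols needed an update. Of several probe sets the one of highest average signal stood for a gene, and 5 of the 49 remodeller genes had more than 1. There were 0 columns of other samples.

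Tumour minus control was fitted over 19938 genes with limma 3.58.1 (lmFit, eBayes; R 4.3.3; no covariate, 3 residual and 2.98 prior degrees of freedom), two-sided, with Benjamini-Hochberg adjustment over all genes and a threshold of 0.05. Intervals are 95% confidence intervals. Paralog shifts were tested by exact permutation. Python 3.11.15, pandas 2.3.3 and matplotlib 3.10.9 joined tables and drew figures. The procedures were tested on simulated data. The number of arrays limits the precision, and no batch is labelled. Array medians over all probe sets lay between 5.66 and 5.77. Over the fitted genes they were 5.98, 5.95 and 6.03 in tumours 1, 2 and 3, against 5.92 and 5.86 in controls 1 and 2.

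The remodeller genes, partner lists and marker lists were chosen with earlier results of these data known. Values per array were given for every called gene, every ATPase and the genes nearest to the threshold, which were Mta1, Hells and Smarcd1; called partner genes were named. Smarcb1, Smarcc1, Smarcc2, Arid1a, Gatad2a and Rbbp7, and the markers Clec4f and Cyp2e1, were given per array, and the hepatocyte mean without Cyp2e1 was added, after their values were seen. Alternatives were repeated quantile normalisation, array weights, a common array median, averaging a gene's probe sets, leaving out the 40% of genes with the lowest means, a robust variance trend, a replicate block, no moderation, a threshold of 0.1 and leaving out each array. Deviations from the group means correlated between same-numbered arrays at 0.004 for replicate 1 and −0.013 for replicate 2. With 2 controls, whose deviations mirror each other, these values cannot decide whether the arrays were paired.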

Additional observations from a re-analysis of the deposited data

How the results depend on the processing

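Single calls rest on few arrays. Genes called lower, 2 at the chosen settings, numbered 0 without moderation, 0 to 2 with 1 array left out and 4 at a threshold of 0.1. Genes called higher, 0 at the chosen settings, numbered 1 with quantile normalisation repeated, with the dimmest 40% left out and with the mean of all probe sets, 3 with array weights, 2 with the replicate block, 4 at a threshold of 0.1, and 0 to 3 with 1 array left out. Over all genes 2106 were called, 3252 with array weights, 18 without moderation, 3326 at 0.1 and 108 to 2719 with 1 array left out, the lowest without control 2 (108) and control 1 (129) and 1266 without tumour 2. A fit without 1 control takes the other to vary as the tumours do. The median remodeller change of 0.07 was −0.0321 with arrays shifted to a common median, a shift that moved the median of all genes by −0.10, and ranged from 0.0381 to 0.1198 with 1 array left out. The adjusted p ranged over the alternatives from 0.00768 to 0.207 for Smarca2 and from 0.01 to 0.248 for Smarcd2. The replicate block left Smarca2 and Smarcd2 called and added Hells and Smarcd1. Hells and Smarcd1 also passed without tumour 3, the array the block leaves out of the estimate. Among the partners the block lost Actr6 (0.053) and Shprh (0.0994). Whether the labels' replicate numbers mark pairs is not known. Rbbp4 was lost with quantile normalisation repeated (0.064), and Actr6 (0.0615) and Shprh (0.0689) with a variance trend.

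Signs turned in some genes that did not pass. With a common median these were Smarca1 (−0.0062), Chd3 (−0.0663), Chd9 (−0.0718), Ep400 (−0.0321) and Smarcad1 (−0.0198), with quantile normalisation repeated Chd7 (0.0156), and with the replicate block Smarcad1 (−0.0438). With 1 array left out, changes spanned −0.14 to 0.13 for Chd3, −0.12 to 0.41 for Chd5, −0.0378 to 0.0357 for Chd7, −0.23 to 0.29 for Chd9 and −0.0438 to 0.2394 for Smarcad1. The paralog shift spanned −0.0415 to 0.2116 for Arid1a minus Arid1b and −0.2911 to 0.0146 for Mta2 minus Mta3. It stayed between −1.95 and −1.49 for Smarca2 minus Smarca4 and between 1.27 and 1.72 for Smarcd1 minus Smarcd2. The cause of these changes was not tested.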
